A study of Tripsacum dactyloides with 133 samples.

Results

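The genes described here are annotated as single in eastern gamagrass (Tripsacum dactyloides), a perennial prairie grass closely related to maize. Their copy number was not measured, and each stands opposite a pair of maize genes. They were chosen from the deposited orthologue table as orthogroups, sets of genes descended from 1 ancestral gene, that hold exactly 1 gamagrass gene and exactly 2 maize genes. There were 1176 such genes, and the 200 with the highest mean level over the plants given a live inoculum were kept, out of 45865 genes in the count table. Level was given in CPM, the count of a gene divided by the total count of its library and scaled to a total of 1000000. Each of the 200 members was set beside the gene nearest to it in mean CPM among 15094 genes of orthogroups with 1 gamagrass and 1 maize gene, which gave 200 different 1:1 genes. Mean CPM therefore chose both sets and is given as a description only.

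RNA was sequenced from crown roots of the cultivar Pete, 1 library per plant, and live inocula were given to 63 drought and 62 well-watered plants. The live inocula came from soils of 4 prairie sites, CWR, WEL, SVR and TRI, with 14 to 16 plants per site and water treatment, and had earlier been conditioned in pots with gamagrass or no host, under drought stress or ample water. Low precipitation legacy for SVR and TRI and high precipitation legacy for CWR and WEL follow the study, as GEO's labels give sites without a legacy. A mock inoculum was given to 8 further plants, 4 in each water treatment. By the study's methods an extract of a conditioned pot could go to plants of both water treatments, and as the labels do not say which plants shared one, each plant was treated as independent.

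Maize and Tripsacum share an old whole-genome duplication, after which many duplicated genes lost a copy, and both lineages also gain copies locally as tandem duplicates. An orthogroup with 1 gene on the gamagrass side and a pair on the maize side can arise by loss in gamagrass, by a local duplication in maize, or by a gene model that is whole in one annotation and split in the other. The maize identifiers used here are numbered along the chromosomes, so genes with close numbers lie in the same region. Identifiers less than 1000 apart are called neighbours here, which need not mean adjacent genes. The deposited tables do not pair gamagrass identifiers with gene names or functions, so no role is given for any member, and the labelled tissue could not be checked against marker genes.

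The maize partners of the members fell into distinct kinds. In 149 of the 200 members (74.5%) the maize identifiers were neighbours, between 10 and 420 apart, and most of these were exactly 10 apart, the usual step from a gene to the next. In the other 51 members they were at least 19010 apart, and no member lay between these ranges. Among the 976 less abundant genes of the same kind 791 had neighbouring maize identifiers. This split was made with the values of the members already known.

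The members made up a small and even share of the RNA. Together they held 2.06% to 3.48% of the counts of a drought library, with a median of 2.85%, and 2.17% to 3.91% in well-watered plants, with a median of 2.91%. For the nearest 1:1 genes the medians were 2.79% (drought) and 2.82% (well-watered). The mean CPM of the members ranged between 47.7 and 4202, with a median of 77.2. Per kilobase of gene span, introns included, the median level was 19.4 CPM per kb in members and 16.5 CPM per kb in the 1:1 genes. The median gene span was 4560.5 bp in members and 4698.0 bp in the 1:1 genes.

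The most abundant member was Td00002ba024082, on chromosome 7 at positions 105474105 to 105478496 of the minus strand in the assembly Td-KS_B6_1-REFERENCE-PanAnd-2.0a, opposite the maize genes Zm00001eb247610 and Zm00001eb247620. It had 1652 to 6322 CPM in drought libraries, with a median of 3780, and 1560 to 8001 CPM in well-watered libraries, with a median of 4379. The ranges overlapped almost wholly, and its level per kilobase was 957 CPM per kb. Its drought difference did not pass the test described below (log2 fold change -0.18, SE 0.08, adjusted p = 0.10 in DESeq2). The next in level was Td00002ba030346, on chromosome 9 at 117055722 to 117058409, with a mean of 1308 CPM and a level of 486.6 CPM per kb. It had 386 to 2205 CPM in drought libraries, with a median of 1329, and 482 to 2647 CPM in well-watered libraries, with a median of 1279, and the fitted difference between the treatments was 0.00 on the log2 scale (SE 0.09).

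Just inside the limit of the choice, Td00002ba034390 averaged 48.3 CPM and Td00002ba029897 averaged 47.7 CPM over the live libraries. Just outside it, Td00002ba006608 averaged 47.6 CPM and Td00002ba032546 averaged 47.4 CPM. Genes next to each other across the limit thus differed by less than 1 CPM.

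The members varied more between plants than the 1:1 genes of the same mean level. Spread was measured as the standard deviation (SD) of log2(CPM + 0.5) between libraries of 1 water treatment. The median SD under drought was 0.50 in members and 0.34 in the 1:1 genes. Under ample water it was 0.48 in members and 0.33 in the 1:1 genes. The ratio of the medians was 1.45 over both treatments, and the median ratio of a member to its own nearest 1:1 gene was 1.20. Among the 50 most abundant members the median SD was 0.53, against 0.48 in their nearest 1:1 genes. Member by member, 60.5% of the 200 varied more than their own nearest 1:1 gene. Of the members 20 had an SD over 1 and 29 an SD under 0.25, against 12 and 55 of the 1:1 genes. These are descriptions of chosen genes, and no test was made of the difference between the sets.

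The wider spread was found in each of the 8 combinations of site and water treatment. These are parts of the libraries that gave the spreads above, with the same genes, so this agreement was partly built in. Within drought, the median SD of members and of 1:1 genes was 0.51 and 0.36 with CWR inocula, 0.46 and 0.31 with WEL, 0.52 and 0.35 with SVR, and 0.47 and 0.35 with TRI. Within well-watered plants the ratio of the medians lay between 1.33 and 1.38 in the 4 sites. A mean CPM is raised by a few high libraries, and the 5 highest libraries held a median of 7.55% of the summed CPM of a member and 6.42% of that of a 1:1 gene.

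The gap in spread was wider for members whose maize partners are neighbours, though this was not tested. Their median SD was 0.55, against 0.36 in the 1:1 genes nearest to them. In the 51 members with distant maize partners the median SD was 0.34, against 0.30 in their nearest 1:1 genes. The ratio was thus 1.53 for the first kind and 1.13 for the second. In drought alone the medians were 0.57 for members with neighbouring and 0.33 for members with distant maize partners, and in well-watered plants 0.54 and 0.32. Genes with neighbouring maize partners had shorter spans, with a median of 4319.0 bp, than genes with distant ones, with a median of 5608.0 bp. Counts that were not whole, a sign of reads shared with another gene or place, occurred in more than 5% of the libraries for 91 of the 149 and for 33 of the 51. The part of span or of shared reads in the spread was not tested. Among the members with whole counts in at least 95% of the live libraries the ratio to their nearest 1:1 genes was 1.496.

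**Figure D1:**
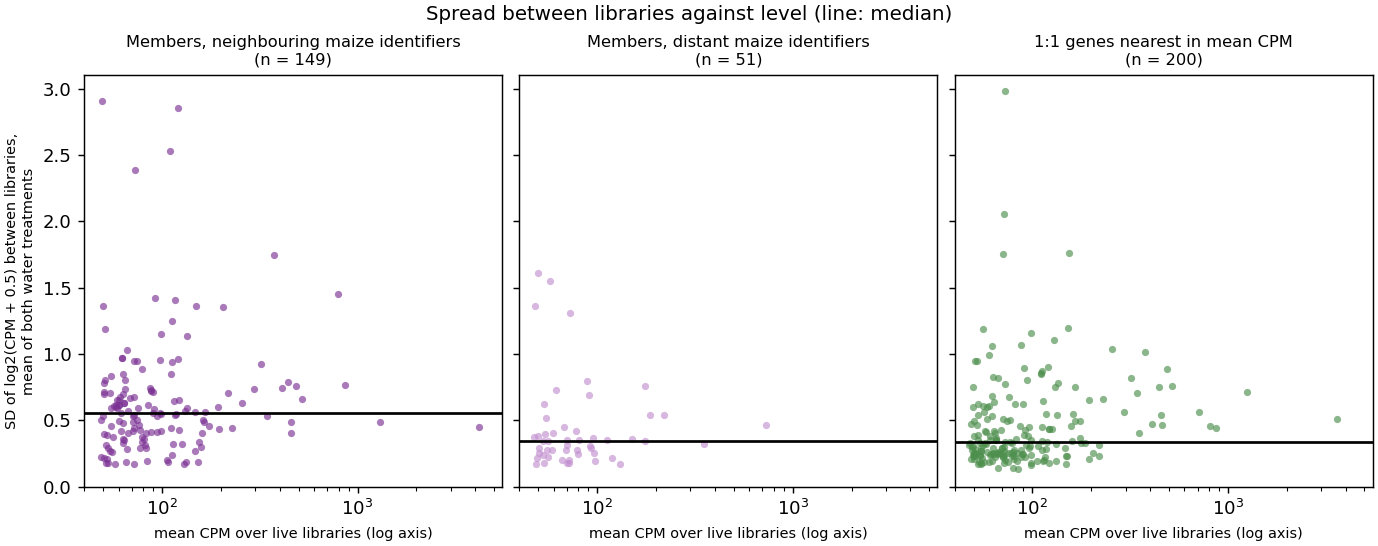
Spread of each gene between libraries (SD of log2(CPM + 0.5), mean of both water treatments) against its mean CPM over the live libraries on a log axis, for members with neighbouring maize identifiers (n = 149), members with distant ones (n = 51) and the nearest 1:1 genes (n = 200). Each point is a gene and the line is the median, which lies at 0.55, 0.34 and 0.34 in the 3 panels.

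At the upper end of the spread, 4 members were under 1 CPM in at least 5 live libraries, all of them with maize identifiers 10 apart, whereas 1 of the nearest 1:1 genes was. Td00002ba021860, on chromosome 6 at 133149151 to 133149700, had the widest spread, with an SD of 2.997 under drought and 2.82 under ample water. It ranged between 0.12 and 745 CPM in drought, with a median of 17.2, and between 0 and 297 CPM in well-watered plants, with a median of 2.02. It was under 1 CPM in 15 of 63 drought and in 27 of 62 well-watered libraries, so that within each treatment the gene was near silent in some plants and abundant in others. In the 5 well-watered libraries with no count, a level of up to 0.08 to 2.62 CPM (3 counts) would be allowed by counting error alone.

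The next was Td00002ba024250, on chromosome 7 at 111139455 to 111140445, with an SD of 2.86 under drought and 2.85 under ample water. It had 0.10 to 1422 CPM in drought, with a median of 24.4, and 0 to 824 CPM in well-watered plants, with a median of 33.2. The treatments overlapped over nearly the whole range, and the drought difference did not pass the test (log2 fold change 0.39, SE 0.42, adjusted p = 0.56 in DESeq2). The other members under 1 CPM in at least 5 libraries were Td00002ba005884 (2 drought and 8 well-watered libraries) and Td00002ba038739 (5 drought and 2 well-watered libraries), both named after their values were seen. Td00002ba005884 reached 3514 CPM in 1 drought library, against a median of 12.2 CPM in the drought group and 5.66 CPM in the well-watered one.

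The steadiest members were close to constant. Td00002ba000372, on chromosome 1 at 26151284 to 26155813, had 49.4 to 84.3 CPM in drought, with a median of 69.4, and 53.9 to 93.9 CPM in well-watered plants, with a median of 75.99. Its SD was 0.18 under drought and 0.15 under ample water, and with so little spread a small difference passed the test (log2 fold change -0.10, SE 0.03, adjusted p = 0.0052 in DESeq2). Td00002ba001777, on chromosome 1 at 81995313 to 81999026, had 103.5 to 197.2 CPM in drought, with a median of 128.96, and 100.97 to 173.95 CPM in well-watered plants, with a median of 130.2. Its maize partners are distant, and its log2 fold change was 0.02 (SE 0.03).

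Spread itself was much the same in both treatments for most members. The ratio of the SD in drought to that in well-watered plants had a median of 1.06 in members and 1.03 in the 1:1 genes. It was over 1.5 in 5 members and in 6 of the 1:1 genes. The largest ratio was 2.47, in Td00002ba042480, followed by 2.18 in Td00002ba041305, and these genes were named here after their values were seen.

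Variation shared between members was described by correlation. After the mean of each water treatment was taken away, the median correlation between pairs of members across the live libraries was 0.02, against 0.01 between pairs of the 1:1 genes, and the 90th percentile of the absolute correlation was 0.48 in members and 0.43 in the 1:1 genes. The first principal component held 21.4% of the variance of the members and 17.01% of that of the 1:1 genes. The median absolute rank correlation with plant number was 0.33 in members and 0.26 in the 1:1 genes over the drought libraries, and 0.17 in members and 0.15 in the 1:1 genes over the well-watered ones. All points share the same libraries.

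Test-phase drought was compared with ample water in an additive DESeq2 model over the live libraries with legacy, conditioning water and conditioning host as the other terms, and a gene was called at an adjusted p under 0.05 (Benjamini-Hochberg over all genes tested). Of the 200 members 58 passed (29%), where 23.3% of all genes tested did. There were 28 members higher in drought (14%, against 10.5% of all genes) and 30 lower (15%, against 12.8% of all genes). Of the nearest 1:1 genes 45 passed, 31 of them higher and 14 lower, and among the 5 nearest 1:1 genes of each member the share called was 30.1%. The share of members called was thus inside the range that 1:1 genes of like level gave. In bulk roots fewer cells of a type and less RNA per cell cannot be told apart.

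The balance of directions moved with the scaling. With TMM size factors 33 members were higher and 24 lower, against 28 and 30 with the median of ratios. The median log2 fold change of all genes was -0.03 with the median of ratios and 0.00 with TMM. The 1:1 genes were called higher more often than lower under both (33 and 11 with TMM).

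Drought differences of members were mostly small. The median absolute log2 fold change was 0.13 over all 200 members, 0.09 over the 1:1 genes and 0.19 over all genes tested, and the median standard error was 0.09 in members and 0.06 in the 1:1 genes. Of the 58 called members 20 differed by less than 0.25 on the log2 scale and 7 by 2-fold or more, against 3 of the 1:1 genes at 2-fold or more. Over all genes tested 4.80% were called at 2-fold or more, against 3.50% of the members. Of these 7 members 6 were higher and 1 was lower in drought, but 6 of the 7 had a mean under the 47.7 CPM limit of the choice in the treatment where they were lower, so that only the other treatment brought them into the set. In all, 11 members were under the limit in well-watered plants (7 of them called) and 3 in drought (2 of them called). Of the 186 members over the limit in both treatments 49 were called (26.3%), 21 higher and 28 lower, a count made after the data were seen. With edgeR's quasi-likelihood test 53 members passed, 52 of them among the 58 and in the same direction.

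Members with neighbouring maize partners were called in 40 of 149 cases, 17 higher and 23 lower, and their nearest 1:1 genes in 38 of 149, 25 higher and 13 lower. Members with distant maize partners were called in 18 of 51 cases, 11 higher and 7 lower, and their nearest 1:1 genes in 7 of 51, 6 higher and 1 lower. Over all genes tested the share called was 23.3%, against 26.8% of members with neighbouring and 35.3% of members with distant maize partners. By level, 14 of the 50 most abundant members were called, 13 of the next 50, 17 of the next and 14 of the last 50, and of the 1:1 genes nearest to them 14, 9, 6 and 16.

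**Figure D2:**
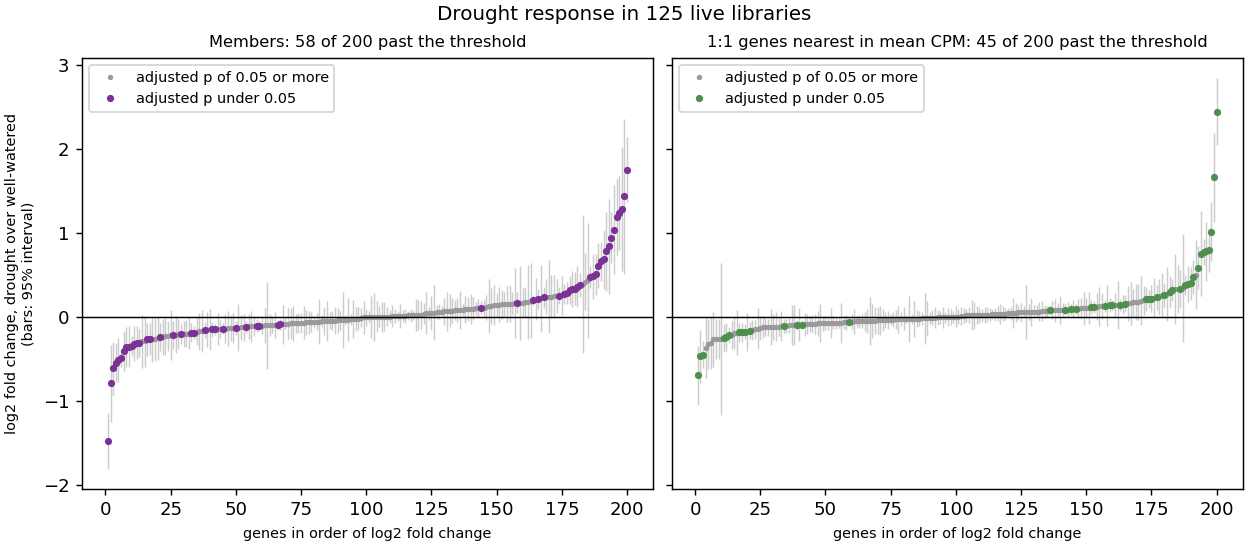
Log2 fold change of drought over well-watered plants for the 200 members and the 200 nearest 1:1 genes, each in order of its value, with 95% intervals as bars and coloured points where the adjusted p was under 0.05. Coloured points number 58 among members, 28 above and 30 below 0, and 45 among the 1:1 genes, 31 above and 14 below 0.

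Every drought plant carried a lower number in the labels than every well-watered plant, so that plant number and water treatment cannot be told apart, and depth differed too, the median library holding 52.8 M counts under drought against 26.1 M when well-watered (M for mega). Each treatment was therefore also parted at its median plant number, which gave 4 pairings of drought with well-watered plants. With the higher numbers of both treatments all 58 called members kept their sign and 43 of them were called. With the lower numbers of both, 48 kept their sign but only 11 of the 58 were called in that direction. Most of the 40 members called there were not among the 58. Each pairing is a part of the plants that gave the 58 calls, so agreement was partly built in, and no like count for other genes is given. In all 4 pairings, 4 members were called in the same direction throughout (2.00%, where 2.16% of all genes were): Td00002ba008959 and Td00002ba041119, which were higher, and Td00002ba041305 and Td00002ba021015, which were lower. Of these, Td00002ba041119 and Td00002ba021015 were singled out after their values were seen. The other members named, Td00002ba008959 and Td00002ba041305, passed the limit of the choice only through the treatment where they were higher.

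Td00002ba008959 had the largest rise among the members. Its mean was 151.1 CPM in drought and 44.97 CPM in well-watered plants, so that it passed the limit of the choice only through the drought libraries. The gene lies on chromosome 2 at 219230645 to 219232604 of the minus strand, opposite the maize genes Zm00001eb124380 and Zm00001eb124800. It had 17.1 to 544 CPM in drought, with a median of 119.3, and 5.13 to 257.3 CPM in well-watered plants, with a median of 27.8. The ranges overlapped, but 60 of 63 drought libraries were above the well-watered median and 10 were above the highest well-watered library. The log2 fold change was 1.75 (SE 0.20, 3.37-fold, adjusted p = 2.7e-16 in DESeq2). It was also called with each site alone, at 1.85 with CWR, 1.47 with WEL, 1.51 with SVR and 2.14 with TRI inocula. Mock plants had 71.7 to 463 CPM in the 4 drought libraries, and 13.8, 40.5 and 245.4 CPM in 3 well-watered libraries. The mock groups overlapped, and 1 further mock well-watered library is left out throughout because 1 count in it was worth 165 CPM.

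Td00002ba041305 had the largest fall. Its mean was 33.4 CPM in drought and 91.8 CPM in well-watered plants, so that it passed the limit of the choice only through the well-watered libraries. It lies on chromosome 15 at 94965729 to 94971013 of the plus strand, opposite Zm00001eb433900 and Zm00001eb433910. It had 3.19 to 98.5 CPM in drought, with a median of 29.1, and 13.5 to 179 CPM in well-watered plants, with a median of 96.4. Of the drought libraries 62 of 63 were below the well-watered median, and 19 were below the lowest well-watered library. The log2 fold change was -1.48 (SE 0.17, adjusted p = 5.9e-16 in DESeq2). It was called with each site alone, at -1.89 with CWR, -1.67 with WEL, -1.22 with SVR and -1.15 with TRI. The level was uneven among drought plants, with an SD of 1.33 on the log2 scale against 0.61 in well-watered plants, and its median was 38.8 CPM in the lower and 15.6 CPM in the higher drought plant numbers. In mock plants it had 8.25 to 64.8 CPM in drought and 17.98, 74.6 and 139.1 CPM in well-watered plants.

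Td00002ba021015 differed by less but with little spread. This gene on chromosome 6, at 50798750 to 50817910 of the minus strand, spans 19161 bp and stands opposite Zm00001eb358660 and Zm00001eb358670. It had 51.4 to 152 CPM in drought, with a median of 105.2, and 59.2 to 207.98 CPM in well-watered plants, with a median of 152. All 63 drought libraries were below the well-watered median. The log2 fold change was -0.49 (SE 0.05, adjusted p = 8.2e-17 in DESeq2), and the gene was called with each site alone. Another gene, Td00002ba021016, lies inside it on the other strand, and since counting set no strand the reads cannot be assigned to a strand. That gene averaged 0.21 CPM, against 126.2 CPM for the member.

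Td00002ba041119, on chromosome 15 at 91287844 to 91306753 with distant maize partners (Zm00001eb024000 and Zm00001eb432020), had 24.3 to 256 CPM in drought, with a median of 108.6, and 21.97 to 186 CPM in well-watered plants, with a median of 69.8. The ranges overlapped widely, while 52 of 63 drought libraries were above the well-watered median. The log2 fold change was 0.66 (SE 0.12, adjusted p = 7.7e-07 in DESeq2). Its median hardly differed between lower and higher plant numbers, at 112.7 and 98.5 CPM in drought and at 68.2 and 71.1 CPM in well-watered plants.

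The next largest rise and fall depended on which plants were compared. Td00002ba021860, the most variable member, had a log2 fold change of 1.44 (SE 0.47, adjusted p = 0.014 in DESeq2) and 47 of 63 drought libraries above the well-watered median. Its median was 70.5 CPM in the lower and 2.70 CPM in the higher drought plant numbers, and 3.27 CPM in the lower and 0.73 CPM in the higher well-watered ones. Its mean was 70.9 CPM in drought and 27.8 CPM in well-watered plants, so that it passed the limit of the choice only through the drought libraries. With the higher drought numbers set against the lower well-watered numbers the difference was -0.67 and did not pass the test (adjusted p = 0.55, over its 15 alternatives the log2 fold change ranged between -0.67 and 2.997). In edgeR the log2 fold change was 1.29 without the plants of WEL inocula (adjusted p = 0.15), 0.93 without SVR (adjusted p = 0.28) and 1.53 without TRI (adjusted p = 0.075), while without CWR it was 2.21 and still called (adjusted p = 0.0098).

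Td00002ba034779, on chromosome 12 at 15275350 to 15276836, was the fourth most abundant member, at 536 CPM per kb. It had 60.1 to 1863 CPM in drought, with a median of 453.8, and 17.7 to 9351 CPM in well-watered plants, with a median of 644. The log2 fold change was -0.79 (SE 0.24, adjusted p = 0.0059 in DESeq2), with 42 of 63 drought libraries below the well-watered median. When well-watered plants under 30 M counts were dropped it was 0.02 (adjusted p = 0.98), and with the lower plant numbers of both treatments it was -0.01 (adjusted p = 0.99). Without the 7 shallowest live libraries it was -0.58 (adjusted p = 0.059). In edgeR it was -0.73 without the plants of CWR inocula (adjusted p = 0.13) and -0.61 without SVR (adjusted p = 0.16), while the call was kept at -0.90 without WEL (adjusted p = 0.019) and at -0.76 without TRI (adjusted p = 0.042).

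**Figure D3:**
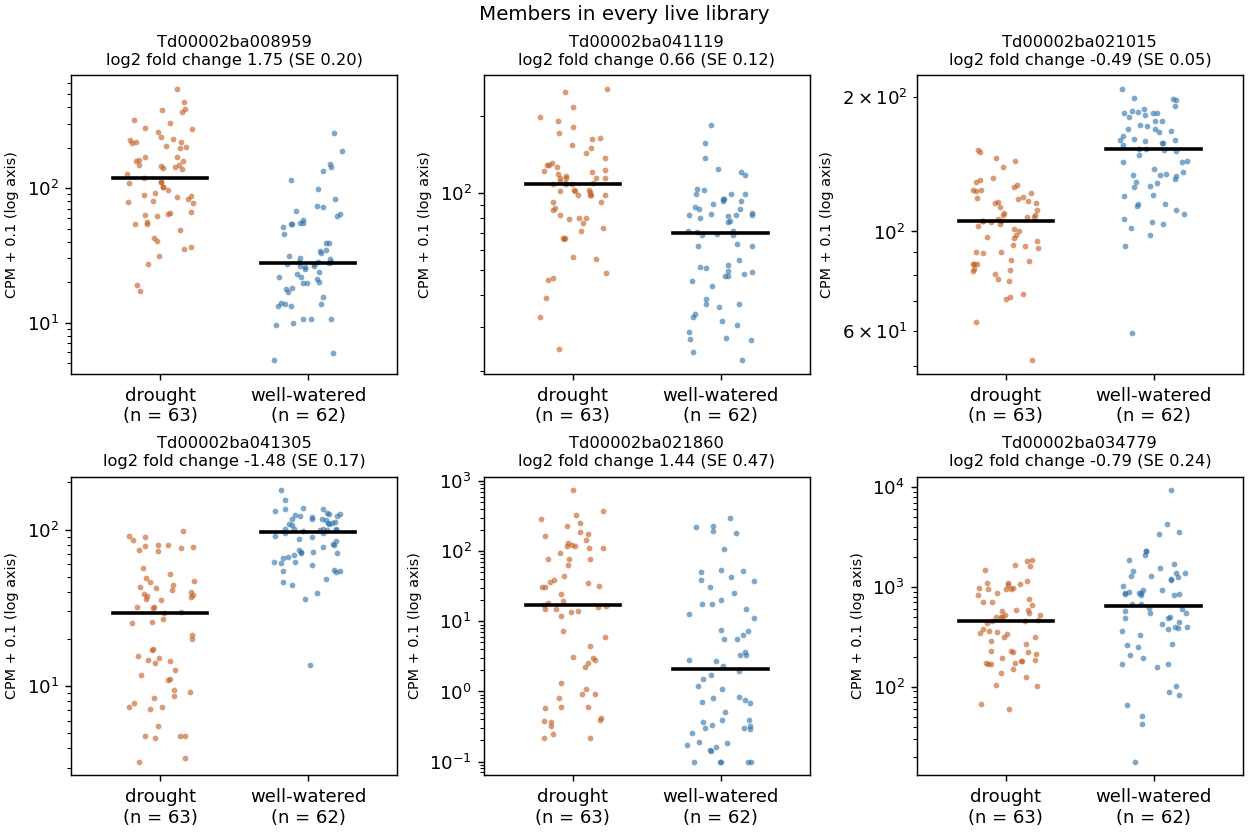
CPM (plus 0.1, log axis) of 6 members in the 63 drought and 62 well-watered live libraries, a point per library and a line at the median. Td00002ba008959, Td00002ba041119, Td00002ba021015 and Td00002ba041305 were called in all 4 pairings of plant numbers, while Td00002ba021860 covers over 3 decades in each treatment and Td00002ba034779 overlaps nearly throughout.

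Drought responses with the inocula of each site came from a model of site by water treatment. With CWR inocula 19 members passed (9.50%, against 7.21% of all genes). With WEL 5 passed (2.50%, against 3.13% of all genes), with SVR 6 (3%, against 3.51%) and with TRI 7 (3.50%, against 2.79%). In 176 members no site was called, in 18 only 1 site, in 2 members 2 sites, in 1 member 3 sites and in 3 members all 4. The last are Td00002ba008959, Td00002ba041305 and Td00002ba021015, and the member with 3 sites is Td00002ba006954, with log2 fold changes between 0.15 and 0.23. Those with 2 sites, CWR and TRI in both cases, are Td00002ba010615, which was lower, and Td00002ba042480, which was higher. These last 3 genes were singled out after their values were seen. Of the members called in all 4 sites, Td00002ba008959 and Td00002ba041305 passed the limit of the choice only through 1 treatment. Of the 58 members called over all sites, 55 had the same sign in every site. The same plants gave the 58 calls, so this agreement was partly built in. No like counts for other genes are given, so it is not shown to be a trait of the members.

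**Figure D4:**
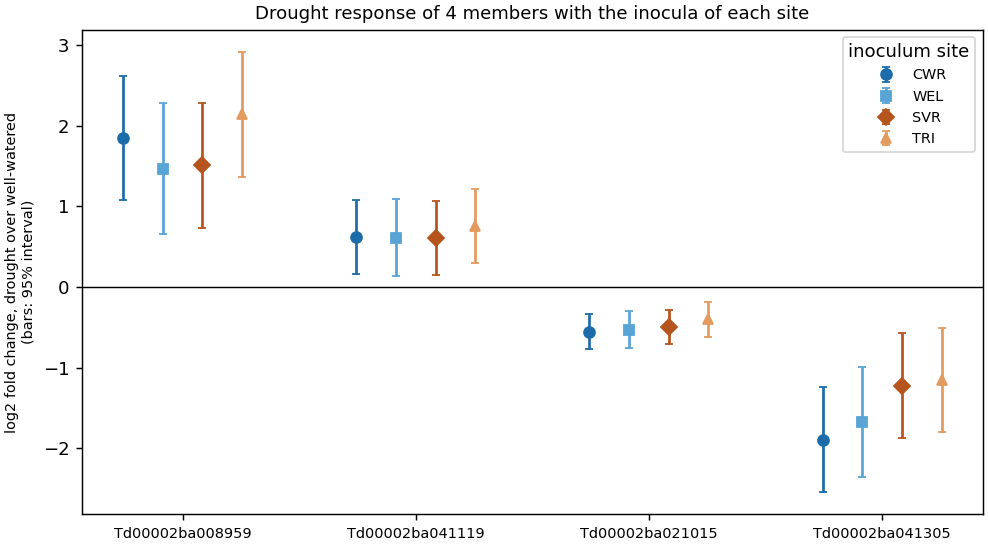
Log2 fold change of drought over well-watered plants with CWR, WEL, SVR and TRI inocula for 4 members, with 95% intervals as bars. Every point lies on the same side of 0 as the other sites of its gene, and the intervals of a gene overlap between sites.

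Whether the drought response itself differed between sites was tested with a likelihood ratio test of the site by water terms. No member passed in DESeq2 (4 had an unadjusted p under 0.05, and 0.052% of all genes passed), and none passed in edgeR, where 6 had an unadjusted p under 0.05. The legacy by drought interaction was called in no member (4 at an unadjusted p under 0.05 in DESeq2 and 4 in edgeR), with 0.0253% of all genes called.

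The same held for what the inoculum had been through before. Between 64 libraries of low and 61 of high precipitation legacy, no member was called in DESeq2 (3 at an unadjusted p under 0.05, and 0.0633% of all genes called) or in edgeR (2 at an unadjusted p under 0.05). Between 62 libraries with drought-stressed and 63 with well-watered conditioning, none was called in DESeq2 (4 at an unadjusted p under 0.05, and 0.0429% of all genes called) or in edgeR (1). Between 63 libraries with gamagrass and 62 with no host during conditioning, none was called in DESeq2 (11 at an unadjusted p under 0.05, and 0.0452% of all genes called) or in edgeR (10). With such low shares over all genes, 0 of 200 is near the background and says little of the members themselves.

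The share of members called for drought differed with the choice of plants. It was 45.5% with the higher plant numbers, against 36% of the 1:1 genes and 30.9% of all genes, and 20% with the lower plant numbers, against 19.5% of the 1:1 genes and 15.1% of all genes. When well-watered plants under 30 M counts were dropped, 28 members and 28 of the 1:1 genes were called (14% each, and 11.1% of all genes).

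**Figure D5:**
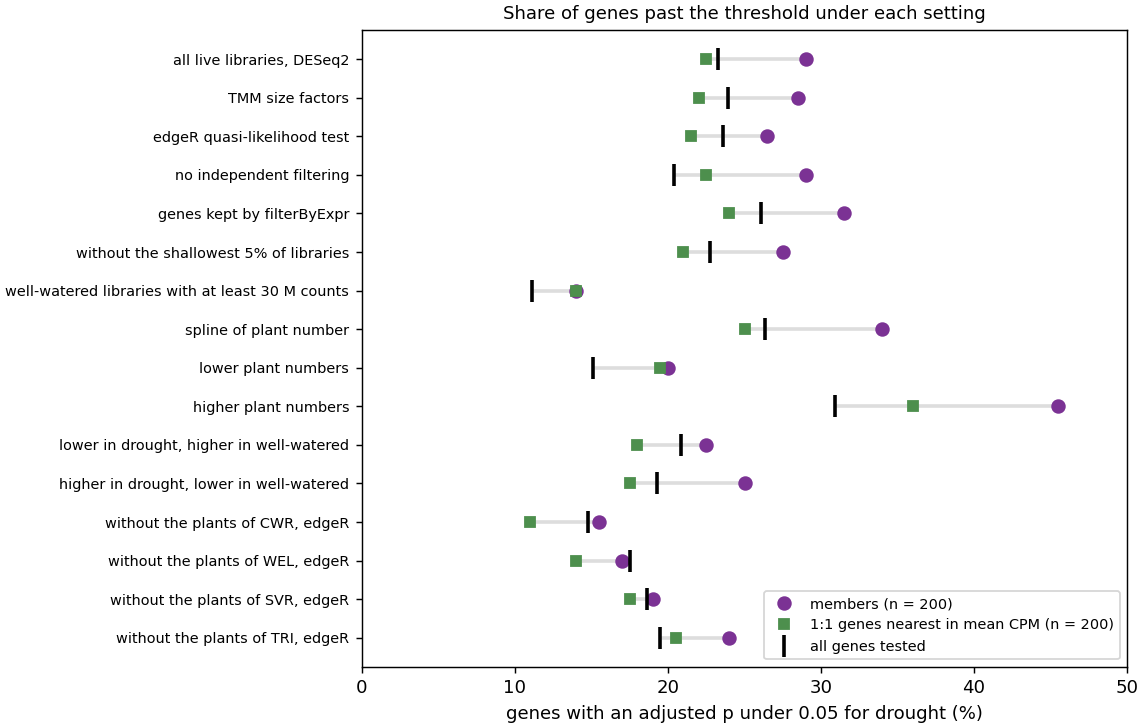
Share of genes with an adjusted p under 0.05 for drought (x axis, %) under each setting (rows), for the 200 members, the 200 nearest 1:1 genes and all genes tested. With all live libraries in DESeq2 the shares were 29%, 22.5% and 23.3%. The members lie at or above the 1:1 genes in each setting and a little below all genes when the plants of WEL inocula are left out.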

How the data were processed

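The authors trimmed reads of directional poly(A) libraries with cutadapt and aligned them with HISAT2. Duplicate reads were then removed, and the rest were counted with featureCounts (version 2.0.5 per the file header). How far the removal of duplicates changed the levels of abundant genes, or differed with depth, was not tested. The deposited values are estimated counts per gene, not normalized. Reads in several genes or places were counted as fractions (13.9% of cells not whole at a tolerance of 1e-06), mates were counted singly and no strand was set. OrthoFinder gave the orthologue table. Live libraries held 13.6 to 64.2 M counts in drought and 1.14 to 69.4 M in well-watered plants. Libraries are plants, and the highest correlation between libraries of 1 site and water treatment was 0.94, so none was treated as a repeat.

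Counts were rounded for DESeq2 1.42.0 and edgeR 4.0.16, and both were tested on simulated data. The main DESeq2 models were fitted on all genes with a count. edgeR was fitted on the genes kept by its expression filter, 33932 with all live libraries. CPM and spread were computed in Python 3.11.15. Members and lists were chosen with earlier results of these data known. Named members were the 2 highest and 2 lowest drought fold changes called with 1 sign in all 4 sites, the 2 highest levels, 2 genes on each side of the limit, and the 2 widest and 2 narrowest spreads. Others were named after their values were seen.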

Additional observations from a re-analysis of the deposited data

How the results depend on the processing

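The count of members called for drought stayed within 1.5 times of 58 with TMM scaling, edgeR, other filters, a spline of plant number and mixed plant-number pairings. Lists of another size are compared by share, 29% of the 200 members, 27% of the 100 and 30.25% of the 400 most abundant genes and 31.6% of members with whole counts. The count over the 200 members was 28 with only the well-watered libraries of at least 30 M counts, 91 with the higher plant numbers, and 31, 34 and 38 in edgeR without the plants of CWR, WEL and SVR, where edgeR on all plants gave 53. The count of members lower in drought, 30, became 9 with those deep well-watered libraries, 18 with the lower and 55 with the higher plant numbers, and 11, 10 and 12 without CWR, WEL and SVR, where edgeR on all plants gave 24. The settings behind these changed counts use fewer libraries, but so do the mixed plant-number pairings and the set without TRI, where the counts stayed within 1.5 times. Why the counts changed was not tested. The count of members higher in drought stayed within 1.5 times of 28 over the 200 members, and its share, 14%, was 14% and 16% with 100 and 400 genes and 15.8% among members with whole counts. Among single members, Td00002ba021860 turned to -0.67 with higher drought against lower well-watered plant numbers, and Td00002ba034779 to 0.017 with the deep well-watered libraries. Td00002ba008959 (1.26 to 2.06) and Td00002ba041305 (-2.26 to -0.91) kept direction and call in all 15 alternatives, but each passed the limit of the choice only through 1 treatment. The ratio of median spread, 1.45, lay between 1.28 (1:1 genes nearest in CPM per kb) and 1.496 under alternatives over members of both kinds. The comparisons with 5 nearest or per-kilobase 1:1 genes for spread, with whole counts, by maize identifiers and over all 4 pairings were added after seeing the data. No paired analysis was possible because no plant number occurs in both water treatments and the labels do not say which plants received the same extract, although the study shared extracts between treatments. Depth and plant number differ between treatments and limit every drought value.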
